A study of Mus musculus with 2 samples.

Results

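The genes for the receptors of glutamate, GABA and glycine, the fast transmitters of the central nervous system and their G protein-coupled counterparts, were described by the open chromatin at their promoters and around them. A list of 46 gene symbols set the members, and 46 of 46 were found among the 21853 protein-coding genes of the GENCODE vM21 annotation. They comprised 17 ionotropic glutamate receptor genes, 7 metabotropic glutamate receptor genes, 16 GABA-A genes, 2 GABA-B genes and 4 glycine receptor genes. The list was set by receptor family and not by a threshold on these data, although earlier results of the data were known when it was drawn up. The study mapped open chromatin by DNase-seq, in which DNase I cuts DNA that is not tightly wrapped and the cut ends are sequenced. The tissue was the neural tube, the embryonic forerunner of brain and spinal cord, from healthy B6NCrl mouse embryos aged 11.5 days, with males and females pooled. There was 1 group with 2 replicate libraries, from separate biosamples that carry 1 donor label, and no treatment, genotype or other stage to compare with. Every statement below is therefore a description within each library and side by side between them, with no test and no p-value.

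Fast excitation and inhibition run through ligand-gated channels built from several subunits. AMPA, kainate and NMDA receptors pass cations when glutamate binds, whereas GABA-A and glycine receptors pass chloride, which in immature neurons can depolarize the cell. Metabotropic glutamate receptors and GABA-B receptors act more slowly through G proteins. At mid-gestation the neural tube consists largely of dividing progenitors with the first postmitotic neurons at its outer margin, and receptor subunits are known to be exchanged as neurons mature. Chromatin can be open at a gene that is not yet transcribed, so a peak is not a measure of expression. In bulk tissue, fewer cells with an open site and less cutting per cell cannot be told apart.

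A peak was a window of 150 bp called in each library on the mm10 build (GRCm38), with a whole-number score of up to 150. The sources used here do not state what the score measures. It was therefore ranked within its own library. The percentile of a peak is its rank from the lowest score, as a percentage of that library's peaks, with tied scores given their average rank. Replicate 1 held 199653 peaks with a median score of 45, and replicate 2 held 154324 with a median score of 26, and a site missing from the shorter list through lower depth or through the tissue itself cannot be told apart. A promoter peak touched the window that reaches 500 bp up- and downstream of a transcription start site (TSS) of the gene's protein-coding transcripts. A distal peak was centred over 1 kb away from all protein-coding TSSs and was counted for the gene whose TSS lay closest. As a check of the tissue label, promoter peaks were present in both libraries at 8 of 8 neural progenitor markers and 7 of 7 neuron markers. Among markers of other cells they were present at 1 of 6 erythroid, 0 of 4 myeloid, 2 of 4 endothelial, 0 of 4 liver and 2 of 4 muscle genes. Over all protein-coding genes the share in both libraries was 66.5%. With each library taken alone, 3 of 4 muscle genes had a promoter peak in each, and 0 of 4 lacked one in both. Of the endothelial genes, 2 of 4 had one in replicate 1 and 3 of 4 in replicate 2. The part of those other cells in the results below was not tested.

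The highest-ranked shared distal peak of each of 4 receptor genes is printed first, for the genes that lead when ranked by this peak. A peak with a full binding word of the repressor REST, which both libraries called at identical coordinates, follows. These are the sequences that the later descriptions return to. All are on the plus strand of GRCm38, 5′ to 3′. Capitals mark a CAGCTG E-box in the Glra1 peak and the REST word in the Gria1 peak, and no capitals are used where none of the words searched was found.
Glra1 chr11:55791616-55791765: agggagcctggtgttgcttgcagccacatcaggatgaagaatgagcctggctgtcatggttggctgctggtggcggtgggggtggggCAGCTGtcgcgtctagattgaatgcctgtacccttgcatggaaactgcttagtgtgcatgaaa
Grm8 chr6:28135916-28136065: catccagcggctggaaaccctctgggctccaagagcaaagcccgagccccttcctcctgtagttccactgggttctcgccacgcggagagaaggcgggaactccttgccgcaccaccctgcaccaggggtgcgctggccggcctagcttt
Grik3 chr4:125729376-125729525: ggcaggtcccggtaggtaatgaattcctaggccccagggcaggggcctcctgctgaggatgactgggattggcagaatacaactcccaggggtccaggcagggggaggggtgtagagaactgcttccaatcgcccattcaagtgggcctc
Grid1 chr14:34823256-34823405: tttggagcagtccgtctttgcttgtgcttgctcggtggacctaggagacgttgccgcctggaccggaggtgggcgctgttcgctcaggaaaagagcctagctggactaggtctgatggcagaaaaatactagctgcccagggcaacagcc
Gria1 chr11:56812236-56812385: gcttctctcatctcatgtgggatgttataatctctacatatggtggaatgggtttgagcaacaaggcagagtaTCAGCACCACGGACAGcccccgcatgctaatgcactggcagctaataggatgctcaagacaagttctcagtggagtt

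Glra1 encodes the ligand-binding alpha subunit of the mature spinal glycine receptor, and its highest-ranked shared distal peak lay in intergenic DNA 183 kb upstream. The score of this peak was 137 in replicate 1 and 100 in replicate 2, at percentiles 98.1 and 93.4. Close behind came a peak 1.45 kb upstream of Grm8, a presynaptic autoreceptor of group III, with scores of 126 and 108. The Grik3 peak lay 239 kb downstream of the start of this kainate subunit gene, beyond its end, and scored 126 and 83. For Grid1, a delta receptor that organizes synapses, the peak was in an intron 3.22 kb from the start and scored 110 and 88. All 4 of these distal peaks ranked high in both lists, and the lowest percentile among them was 89.9, for Grik3 in replicate 2.

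Most of the receptor genes had an open promoter. A promoter peak was found for 41 of 46 genes in replicate 1 and for 40 of 46 in replicate 2, and 40 had one in both libraries. Over all protein-coding genes the shares were 68.5% in replicate 1, 67.7% in replicate 2 and 66.5% in both. All 17 ionotropic glutamate receptor genes had a promoter peak in replicate 1 and 16 of them in both, and all 7 metabotropic genes, both GABA-B genes and all 4 glycine receptor genes had one in both. GABA-A genes were split, with 11 of 16 open in both libraries and 5 in neither, against 30.4% of all genes in neither. The count of 40 was the same with hotspots, the authors' broader regions of enriched cutting, in place of peaks. It was also 40 when the lower-scoring 50% of peaks were dropped and when both libraries were cut to the same number of peaks. With 200 bp to either side of a TSS it was 35, as Grik3, Grin2d, Grin3a, Grm4 and Gabrd then had no peak in both.

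**Figure D1:**
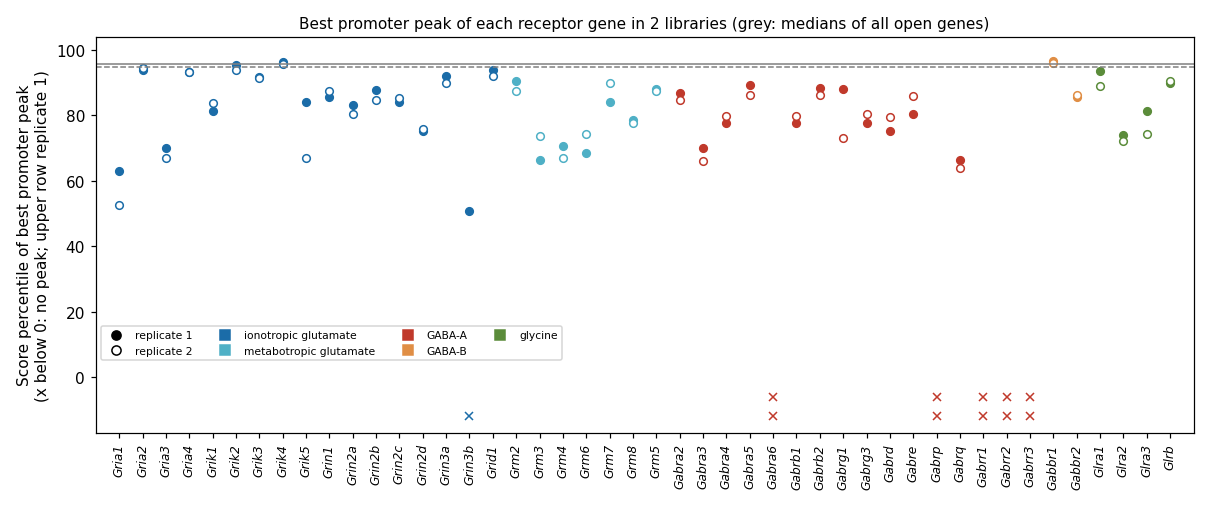
Score percentile, within its own library, of the best promoter peak of each of 46 receptor genes (y axis, percent; x axis, gene), with replicate 1 as filled and replicate 2 as open circles and crosses for genes with no promoter peak. The grey lines are the medians over all genes with a promoter peak, 95.7 (solid, replicate 1) and 94.7 (dashed, replicate 2), and all receptor genes but Grik4 and Gabbr1 lie below them.

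The open promoters ranked lower by score than those of most genes. The best promoter peak of an open receptor gene had a median percentile of 84.1 in replicate 1 (41 genes, 50.9 to 96.5) and 84.6 in replicate 2 (40 genes, 52.6 to 96.0). Over all genes with a promoter peak the medians were 95.7 and 94.7. In the top 10% of their library's peaks stood 10 of the 41 receptor promoters in replicate 1 and 8 of the 40 in replicate 2, while 74.5% and 71.2% of all open genes did. An open receptor promoter held a median of 2 peaks in each library, with up to 7 at Grin2a in replicate 1 and up to 6 at Gria3 in replicate 2.

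Among the AMPA subunit genes, which set the fast component of excitation, promoters differed widely. Gria2 encodes the subunit whose edited form keeps calcium out, and its promoter peak scored 120 in replicate 1 and 106 in replicate 2, at percentiles 93.9 and 94.5. Gria4, another pore subunit, was close to it, with scores of 117 and 100 and percentiles of 93.2 and 93.4. Gria1 and Gria3 lay far lower in both libraries. For Gria1, the subunit central to synaptic potentiation, the scores were 58 and 27 at percentiles 63.1 and 52.6, the lowest of any member with a promoter peak in both libraries. The hotspot at the Gria1 promoter carried a −log10 q-value of 100 in replicate 1, the highest value in the files, and of 2.94 in replicate 2. The Gria3 promoter, on the X chromosome, scored 67 and 38 (percentiles 70.0 and 67.0).

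Kainate subunit genes had the highest promoter ranks of the groups with more than 2 genes, with a median percentile of 91.7 in replicate 1 and 91.5 in replicate 2 over 5 genes. Grik4, a high-affinity subunit that needs a partner to form a channel, led with scores of 130 and 112 (percentiles 96.2 and 95.6). Grik2, the most widely used pore subunit, followed with 126 and 103 (95.3 and 93.9), and Grik3 with 111 and 90 (91.7 and 91.5). Grik1 scored 86 and 64 (81.4 and 83.8). The libraries disagreed over Grik5, the partner subunit found in most neuronal kainate receptors, whose best promoter peak scored 91 at percentile 84.1 in replicate 1 and 38 at percentile 67.0 in replicate 2.

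NMDA receptors need the GluN1 subunit, the product of Grin1, together with GluN2 or GluN3 subunits that set their kinetics. The Grin1 promoter peak scored 94 in replicate 1 and 74 in replicate 2, at percentiles 85.5 and 87.5. Grin2b, the main embryonic GluN2 gene, scored 99 and 66 (87.7 and 84.6), and Grin2a, which is known to take over after birth, 89 and 57 (83.1 and 80.4). The embryonic and the later subunit gene were thus close in rank in both libraries. Grin2c scored 91 and 68 (84.1 and 85.4) and Grin2d 75 and 49 (75.1 and 75.7). Grin3a, whose subunit lowers calcium flow, ranked highest of the group with 112 and 83 (92.0 and 89.9).

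Grin3b was the single receptor gene open in 1 library only. Its promoter peak in replicate 1 scored 46, at percentile 50.9, inside a hotspot with a −log10 q-value of 2.88. In replicate 2 the nearest peak centre lay 596 bp from its TSS, outside the promoter window of 500 bp but inside one of 1000 bp. Grid1, of the delta group, scored 120 and 93 (93.9 and 92.1).

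Metabotropic glutamate receptor genes were all open, with a median percentile of 78.6 in replicate 1 and 77.6 in replicate 2. Grm2, a group II autoreceptor coupled to Gi, had scores of 107 and 74 (90.5 and 87.5), and Grm5, the group I receptor coupled to Gq, 100 and 74 (88.1 and 87.5). Grm7, a presynaptic group III receptor, had 91 and 83 (84.1 and 89.9). Lower ranks were held by Grm8 with 81 and 52, Grm4 with 68 and 38, Grm6 with 65 and 47 and Grm3 with 62 and 46. Grm6, best known from the ON bipolar cells of the retina, was at percentiles 68.6 and 74.4.

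The 5 receptor genes with no promoter peak in either library were all GABA-A genes. They were the rho subunit genes Gabrr1, Gabrr2 and Gabrr3, known from the retina, Gabra6, known from cerebellar granule cells, and Gabrp, whose pi subunit is known from tissues outside the nervous system. The nearest peak centre to any TSS of Gabra6 was 6018 bp away in each library. For Gabrr2 this distance was 5805 bp in each library, and for Gabrr1 it was 6670 bp in replicate 1 and 7810 bp in replicate 2. Gabrp had its nearest peak 8346 and 29032 bp away. Gabrr3 came closest, with a peak 2139 and 2179 bp from its TSS. No hotspot overlapped any of these 5 promoters in either library.

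The 11 open GABA-A promoters had a median percentile of 77.5 in replicate 1 and 79.9 in replicate 2. Gabra5, an alpha subunit of extrasynaptic receptors in embryonic and hippocampal neurons, scored 103 and 70 (89.2 and 86.1), Gabrb2 101 and 70 (88.5 and 86.1), and Gabra2, an alpha subunit prominent in the embryo, 97 and 66 (86.8 and 84.6). Gabrg1 differed between libraries, at 100 and percentile 88.1 in replicate 1 and at 45 and percentile 72.9 in replicate 2. Gabra4 and Gabrb1, which are transcribed away from each other, shared their best promoter peak, which scored 79 and 56 (77.5 and 79.9). Gabrb1 also had a promoter peak of its own at its principal TSS, 41.8 kb further on, which scored 77 and 47. Gabrg3 scored 79 and 57 and Gabre, on the X chromosome, 84 and 69. Gabrd, the delta subunit of receptors for tonic inhibition, scored 75 and 55 (75.1 and 79.3). The lowest ranks were those of the X-linked genes Gabra3 with 67 and 37 (70.0 and 66.1) and Gabrq with 62 and 35 (66.3 and 63.9).

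GABA-B receptors are obligate pairs of the ligand-binding product of Gabbr1 and the G protein-coupling product of Gabbr2. Gabbr1 had the highest-ranked promoter of all 46 genes, with scores of 131 and 114 at percentiles 96.5 and 96.0, and Gabbr1 and Grik4 were the 2 members above the median of all open genes in both libraries. Its best peak lay at different TSSs in the 2 libraries, chr17:37050496-37050645 in replicate 1 and chr17:37045876-37046025 in replicate 2. Gabbr2 scored 94 and 70 (85.5 and 86.1).

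Glycine receptors pair alpha subunits with the beta subunit that anchors them to gephyrin. Glra1 scored 118 and 79 at its promoter (93.4 and 88.9) and Glrb, the beta subunit gene, 105 and 86 (89.9 and 90.6). Glra3 was lower, with 86 and 47 (81.4 and 74.4). The lowest was Glra2, the alpha subunit that is known to prevail in embryonic neurons, with 73 and 44 (73.9 and 72.2). The promoter of the mature alpha subunit gene thus ranked above that of the embryonic one in both libraries. Glra2 lies on the X chromosome and Glra1 on chromosome 11. GC content around the principal TSS was 44.0% for Glra2 and 56.3% for Glra1. Whether either difference bears on the order was not tested.

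Many of the members had more than 1 TSS, and their use could be compared within a gene. Of 117 annotated TSSs, 87 had a peak in replicate 1, 84 in replicate 2 and 84 in both. The principal TSS, taken as the best-ranked annotated transcript, was open in both libraries in 40 of 46 genes. Closed TSSs in open genes were often internal starts far inside the gene. They lay 850 kb downstream of the first start in Grm7, 516 and 253 kb in Grik2, 267 kb in Gabbr2, 234 kb in Grik1 and 18.05 and 18.15 kb in Grm5. Grin2d and Grm4 were exceptions, since their most upstream TSS was closed in both libraries and a later one was open. In Grin2d the nearest peak centre to that TSS was 4807 bp away in replicate 1 and 4927 bp in replicate 2. In Grm4 it was 652 bp away in each library, outside the promoter window of 500 bp but inside one of 1000 bp.

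**Figure D2:**
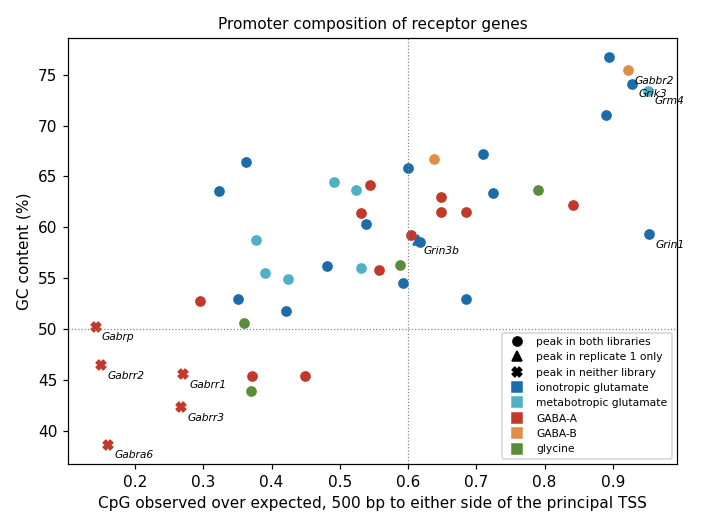
GC content (y axis, percent) against CpG observed over expected (x axis, ratio) in the 500 bp to either side of the principal TSS of 46 receptor genes, by class (colour) and promoter peak (symbol). The 5 genes open in neither library sit at the lower left, with a CpG ratio of 0.142 to 0.270, and dotted lines mark the limits of a CpG-rich promoter at a ratio of 0.6 and 50% GC.

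Among the receptor genes, the 5 open in neither library and the 40 open in both did not overlap in CpG content. The CpG dinucleotide is rare in the genome and is kept in CpG islands, which are open in most cell types. In the 500 bp to either side of the principal TSS, the observed over expected CpG ratio of Gabra6, Gabrp, Gabrr1, Gabrr2 and Gabrr3 ran from 0.142 to 0.270 with a median of 0.161. In the 40 genes open in both libraries it ran from 0.295 to 0.954 with a median of 0.573. GC content overlapped, at 38.7% to 50.2% in the closed and 44.0% to 76.7% in the open genes. Over all protein-coding genes the median CpG ratio was 0.162 for genes open in neither library and 0.718 for genes open in both. There the ranges overlapped almost fully, at 0 to 1.11 for genes open in neither and 0.0209 to 1.21 for genes open in both.

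A promoter was called CpG-rich with a ratio of at least 0.6 and at least 50% GC. By this rule 18 receptor genes were CpG-rich and 28 were CpG-poor. Of the CpG-rich genes 17 were open in both libraries, all but Grin3b, beside 98.7% of 10072 such genes in the genome. Of the CpG-poor genes 23, or 82.1%, were open in both, beside 39.0% of 11781 in the genome. The CpG-poor ionotropic glutamate genes (8 of 8), metabotropic genes (6 of 6) and glycine receptor genes (3 of 3) were all open, and the GABA-A genes were open in 6 of 11. Examples of open CpG-poor promoters were Gria4, Glra1, Grm2 and Gabrb2. The ratio of the open CpG-poor receptor genes ran from 0.295 at Gabra3 to 0.5997 at Grin2a. Some were just under the limit, such as Grik1 at 0.592 and Glra1 at 0.588. Receptor genes and all genes were not matched for CpG ratio within the CpG-poor class. With stricter limits on CpG and GC content, which count more genes as CpG-poor, the share was 84.2% for receptor genes and 54.96% for all genes.

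The lower rank of receptor promoters was also seen within each promoter type. CpG-rich receptor promoters had a median percentile of 88.0 in replicate 1 and 87.5 in replicate 2, beside 97.0 and 96.4 for all open CpG-rich genes. CpG-poor receptor promoters had 81.4 and 77.6, beside 88.8 and 87.2. No test was made of either difference.

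**Figure D3:**
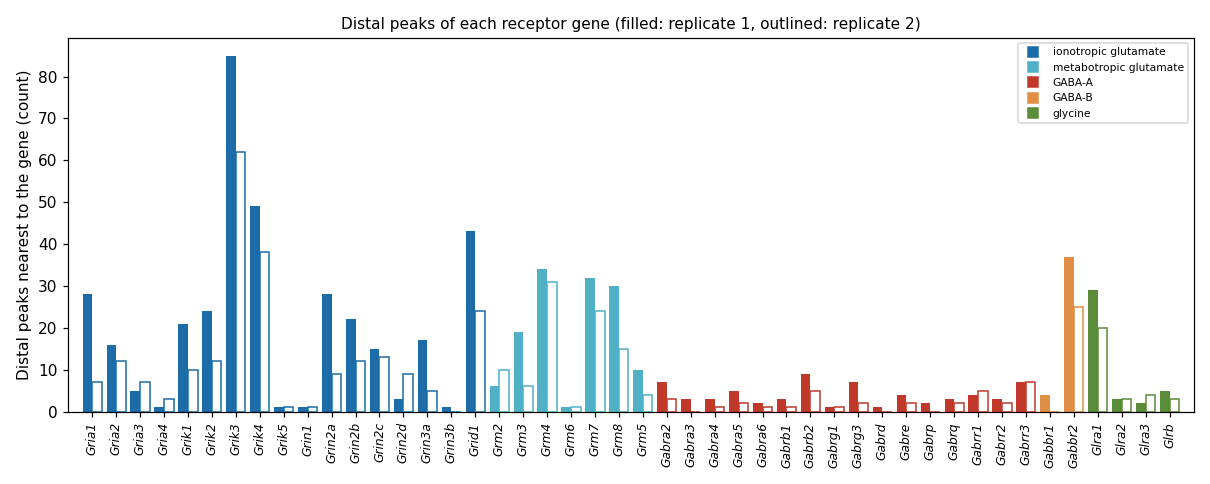
Number of distal peaks (y axis, count) assigned to each of 46 receptor genes (x axis) in replicate 1 (filled bars) and replicate 2 (outlined bars), by class. Grik3 has the most with 85 and 62, while every GABA-A gene but Gabrb2 has 7 or fewer in each library.

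Around the genes, 636 distal peaks in replicate 1 and 405 in replicate 2 were nearest to a receptor gene. A receptor gene had a median of 5.5 and 4.5, beside 3 and 2 for all genes, and 41 of 46 had at least 1 in both libraries, beside 66.1% of all genes. Receptor genes also own long stretches of genome. The territory of a gene, the genome for which one of its TSSs was the closest of all, had a median of 270 kb over the members and 46.5 kb over all genes, and 36 of 46 members were above that median. Per 100 kb of territory the members had a median of 4.10 distal peaks in replicate 1 and 1.47 in replicate 2, beside 5.33 and 3.53 for all genes. The members' median in replicate 1 was 2.32 when both libraries were cut to the same number of peaks. With all peaks, 30 of the 46 genes were below the genome median in both libraries. Among the 22 receptor genes with territories between 54.8 and 519 kb the medians were 3.91 and 2.20, beside 6.52 and 4.41 over 8699 genes in that range.

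Of the members' distal peaks in replicate 1, 256 (40.3%) overlapped a peak of replicate 2 by at least 1 bp, and of those in replicate 2, 266 (65.7%) overlapped one of replicate 1. Over all distal peaks these shares were 48.1% and 66.4%. More distal peaks were called in replicate 1 than in replicate 2 for 34 of the genes, fewer for 6 (Gria3, Gria4, Grin2d, Grm2, Gabrr1 and Glra3) and equal numbers for 6. In replicate 2 no distal peak was called for Grin3b, Gabra3, Gabrd, Gabrp and Gabbr1. Counts below 10 thus often differed between libraries, and both are given for each gene.

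**Figure D4:**
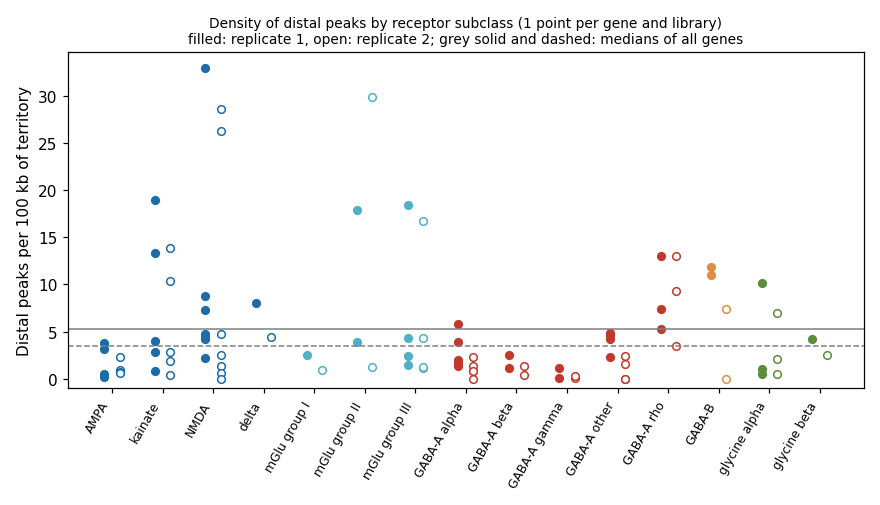
Distal peaks per 100 kb of territory (y axis) for each receptor gene, by subclass (x axis), with replicate 1 filled and replicate 2 open; grey lines are the medians of all genes, 5.33 (solid) and 3.53 (dashed). AMPA and GABA-A gamma genes lie low in both libraries, and the highest points of replicate 2 are Grm2, Grin2c and Grin2d, which have short territories.

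In 6 of the 46 genes the density was in the top 25% of the genome in both libraries, beside 18.1% of all genes. These were Grik3, Grik4, Grin2c, Grm2, Grm4 and Gabrr3. Grik3 had 85 distal peaks in replicate 1 and 62 in replicate 2, or 18.96 and 13.8 per 100 kb over 448 kb, and 44 and 45 of them were shared. Grik4 had 49 and 38, at 13.4 and 10.4 per 100 kb, of which 44 and 35 lay inside the gene itself. These 2 genes held most of the 180 and 123 distal peaks of the kainate group.

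The other kainate genes were sparse by comparison. Grik2, with the longest territory of the members at 2718 kb, had 24 and 12 distal peaks, or 0.883 and 0.441 per 100 kb. Grik1 had 21 and 10, and Grik5 had 1 in each library. The rank of the promoter and the density of distal peaks thus came apart in Grik2, whose promoter stood at percentiles 95.3 and 93.9.

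AMPA genes had few distal peaks for their territories, 50 in replicate 1 and 29 in replicate 2 over 2.68 Mb, or 1.86 and 1.08 per 100 kb in all. Gria1 had 28 and 7, the most of the group in replicate 1 and on the mean of both libraries, with 5 shared in each library. Gria2 had the most in replicate 2 and was the densest on the mean, with 16 and 12, or 3.12 and 2.34 per 100 kb. Gria4, with one of the higher-ranked promoters, had 1 and 3 distal peaks in 458 kb, and none was shared. Gria3 had 5 and 7 in 972 kb.

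For the NMDA group, 87 and 49 distal peaks came to 4.28 and 2.41 per 100 kb. Grin2a had 28 and 9, the most of the group in replicate 1 but fewer than Grin2b and Grin2c in replicate 2. Grin2b had 22 and 12, of which 9 were shared in each library. Grin2c was the densest with 15 and 13 in 45.5 kb, of which 3 and 6 lay within Grin2c itself. Grin2d had 3 and 9, and Grin3a 17 and 5. Grin1 had 1 peak in each library, the same one, in an exon 13.9 kb from its start. Grid1 held 43 and 24 distal peaks, or 8.002 and 4.47 per 100 kb, of which 38 and 16 were within the gene.

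Of the metabotropic genes, Grm4 had the most distal peaks on the mean of both libraries with 34 and 31, of which 23 were shared in each library, or 18.4 and 16.8 per 100 kb. Grm2 had 6 and 10 in 33.5 kb, or 17.9 and 29.8 per 100 kb, and was thus slightly less dense than Grm4 in replicate 1 and denser in replicate 2. Grm7 had 32 and 24 and Grm8 30 and 15, spread over 2148 and 1231 kb. Grm3 had 19 and 6, Grm5 10 and 4 and Grm6 1 and 1. The contrast at Grm4 was opposite to that at Grik2, since its promoter was at percentiles 70.7 and 67.0 while its distal peaks were dense.

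**Figure D5:**
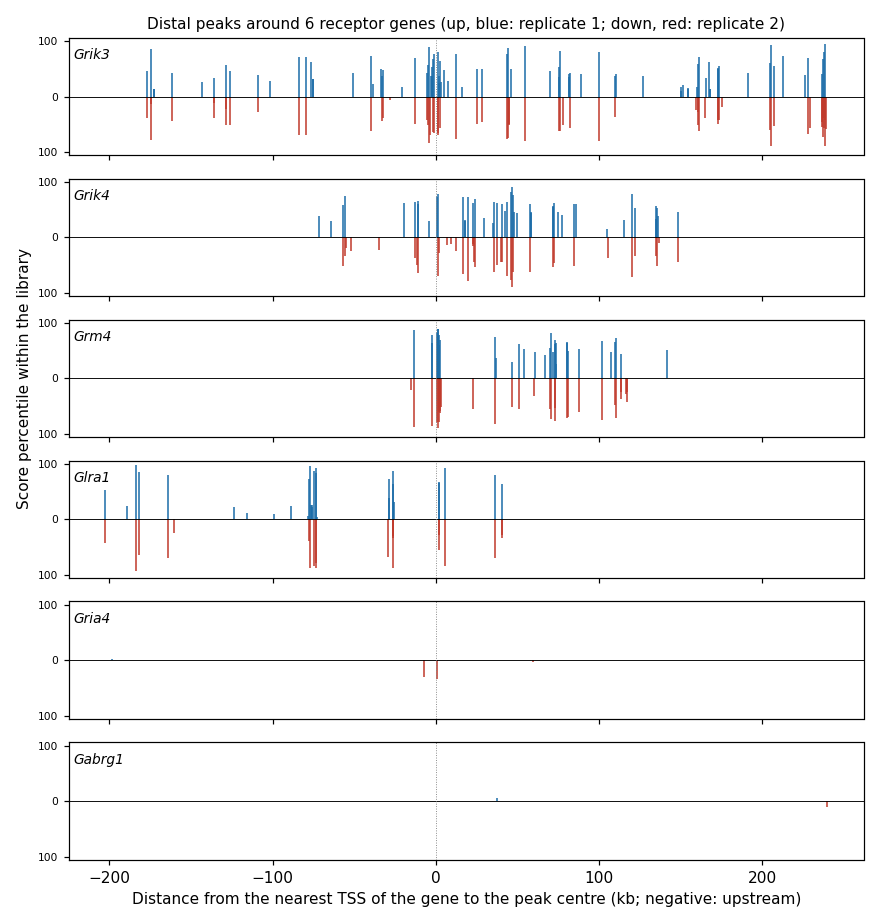
Distal peaks around 6 receptor genes by distance from the nearest TSS of the gene (x axis, kb, negative upstream), drawn up in blue for replicate 1 and down in red for replicate 2 with the score percentile in the library as height (y axis). Grik3, Grik4, Grm4 and Glra1 have many peaks at matching places in the 2 libraries, while Gria4 and Gabrg1 have 3 or fewer in each.

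GABA-A genes had the lowest pooled density of the classes, 64 distal peaks in replicate 1 and 34 in replicate 2, or 1.97 and 1.05 per 100 kb. Gabrb2 had the most in replicate 1, with 9 and 5, and Gabrr3 the most in replicate 2. Gabrg1 had 1 in each library over 752 kb, or 0.133 per 100 kb, and the 2 peaks were not the same. The closed rho genes went the other way. Gabrr3 had 7 and 7, or 13.0 per 100 kb, of which 6 were shared and 6 lay within the gene, and Gabrr1 had 4 and 5 (7.41 and 9.27 per 100 kb). Gabrr2 had 3 and 2, Gabra6 2 and 1 and Gabrp 2 and 0. A closed promoter thus did not mean the lack of peaks in the gene, as Gabrr3 shows.

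Many GABA-A genes lie side by side, and their clusters differed. On chr5:70751047-72149037 the genes Gabrg1, Gabra2, Gabra4 and Gabrb1 were all open at the promoter in both libraries, with 14 and 6 distal peaks between them, or 0.975 and 0.418 per 100 kb. Gabrg3 and Gabra5, on chr7:56716465-57510059, were both open, with 12 and 4 distal peaks. Gabre, Gabra3 and Gabrq, on chrX:72255999-72842602, were open too, with 10 and 4. On chr11:42306437-42629028 the closed Gabra6 and the open Gabrb2 lay 98.7 kb apart, so that an open and a closed promoter were neighbours. Gabrr2 and Gabrr1, on chr4:33062999-33163588, were both closed, with 7 distal peaks in each library or 6.30 per 100 kb.

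GABA-B genes had 41 and 25 distal peaks, and Gabbr2 held nearly all of them, with 37 and 25 (10.97 and 7.41 per 100 kb) and 18 and 19 shared. Gabbr1, the gene with the highest-ranked promoter, had 4 in replicate 1 and 0 in replicate 2. Of the glycine receptor genes, Glra1 had 29 and 20 (10.1 and 6.996 per 100 kb), of which 16 and 18 were shared, and 5 and 6 of them lay within the gene. Its other distal peaks formed groups upstream, as the map of peaks around 6 genes shows. Glrb had 5 and 3, Glra2 3 and 3 in 583 kb, and Glra3 2 and 4.

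Most distal peaks of the members were inside the receptor genes themselves, 400 (62.9%) in replicate 1 and 256 (63.2%) in replicate 2, of which 378 and 234 were in introns and 22 in each library in exons. A further 214 and 134 were intergenic, and 22 and 15 lay in other genes. The share inside the nearest gene was not computed over all distal peaks. The members' distal peaks had a median distance from the nearest TSS of 79.9 and 54.8 kb, beside 34.4 and 30.4 kb for all distal peaks. Those of high rank were few, as 15 (2.36%) and 6 (1.48%) stood in the top 10% of their list, beside 3.55% and 2.52% of all distal peaks. After the 4 genes whose distal peaks are printed above, Grik4, Grm4, Gabbr2, Gria2 and Grin2b came next by their highest-ranked shared distal peak. That of Grik4 (107 and 84) was in an intron 47.0 kb from its start. That of Grm4 (103 and 84) was in an intron, 1.31 kb from an internal TSS. This TSS lay 18.1 kb downstream of the first start of Grm4 and had no promoter peak in either library. The peak of Gabbr2 (112 and 65) was in an intron, 1.76 kb from the nearest TSS. That of Gria2 (109 and 67) was in an exon, 1.84 kb from its TSS in replicate 1. Both were thus not far beyond the distal limit of 1 kb. That of Grin2b (106 and 68) was in an intron 264 kb from the nearest TSS.

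REST is a repressor that binds a long word next to neuronal genes in progenitors and in cells outside the nervous system, and many receptor genes are among its textbook targets. The word TCAGCACCNNGGACAG, in which N is any base, was searched on both strands of the promoter and distal peaks. The matches are printed because they place the word in named genes. Capitals mark the bases that match the word, and lower case marks the 2 free bases and any base that departs from it.
Gria1 chr11:56812309-56812324, plus strand: TCAGCACCacGGACAG
Grid1 chr14:34867445-34867460, plus strand: TCAGCACCtcGGACAG
Grin1 chr2:25319018-25319033, minus strand: TCAGCACCtcGGACAG
Gabra2 chr5:71128076-71128091, minus strand: TCAGCACCaaGGACAG
Grm5 chr7:87588157-87588172, plus strand: TCAGCACCttGGACAG
Gabrd chr4:155397681-155397696, plus strand: TCAGCACCgaGGACgG
Glra1 chr11:55607938-55607953, plus strand: TCAGCACCacGGAgAG
Glra3 chr8:55940764-55940779, minus strand: TCAGCACCtcaGACAG
Grin2a chr16:9836728-9836743, plus strand: TCAGtACCatGGACAG
Grin3a chr4:49844026-49844041, minus strand: TCAGaACCgtGGACAG
Grm4 chr17:27466831-27466846, minus strand: TCAGCACCtcGGAgAG
Grik3 chr4:125503064-125503079, plus strand: TCAGCACCacGGAgAG
Grik3 chr4:125519064-125519079, plus strand: TCAGaACCatGGACAG
Grik3 chr4:125590695-125590710, plus strand: TCAGCACCtcGGAgAG

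With no mismatch the word was in 5 of 739 peaks of receptor genes (0.677%) in replicate 1 and in 2 of 497 (0.402%) in replicate 2. Over all promoter and distal peaks the shares were 0.140% and 0.159%. With at most 1 mismatch it was in 14 member peaks (1.89%) and 10 (2.01%), beside 0.387% and 0.428% of all. These came from 14 places in 12 genes, of which 5 had the full word and 10 were in peaks of both libraries. Counts this small move by much with a single peak, and a match is a description, not a bound site.

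The 5 full words were near Gria1, Grid1, Grin1, Gabra2 and Grm5. That of Gria1 was in an intergenic peak 199 kb upstream, printed above, which scored 54 in replicate 1 and 26 in replicate 2. That of Grid1 was in an intron 47.4 kb from the start, in peaks that scored 60 and 34. The Grin1 word was in the promoter peak of replicate 1, which scored 94, and just outside the peak called in replicate 2, which scored 74. It is shown with its surroundings on the plus strand, on which the word reads as its reverse complement, in capitals with its free bases.
Grin1 chr2:25319011-25319040: gcgggtgCTGTCCGAGGTGCTGAagcgtat

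The peaks with the words of Gabra2, 32.2 kb upstream, and Grm5, in an intron 3.78 kb from the start, scored 33 and 44 and were found in replicate 1 only. Grik3 had 3 of the words with 1 mismatch, all in its introns and all in peaks of both libraries, at 12.4, 28.4 and 100.01 kb from its start. Of these the peaks at 12.4 kb scored 77 and 49 and those at 100.01 kb 85 and 56. Words with 1 mismatch were also in the promoter peaks of Gabrd and Glra1 in both libraries and of Glra3 in replicate 1. The remaining words, in introns of Grin2a, Grin3a and Grm4, were in peaks of both libraries.

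Other short words were about as common as in all peaks, with some lower at promoters. The SP and KLF word GGGCGG was in 21.4% and 32.6% of the members' promoter peaks, beside 42.3% and 45.2% of all promoter peaks. NRF1 words were in 3.88% and 4.35% of them, beside 4.49% and 4.89%. In distal peaks of the members the E-box CAGCTG, the word of many neural bHLH factors, was in 17.9% and 22.5%, beside 15.7% and 17.1% of all distal peaks. The SOX words AACAAAG and AACAATG were in 8.33% and 5.68%, beside 8.26% and 6.52%, and the homeodomain word TAATTA was in 3.77% and 2.22%, beside 3.84% and 2.53%. Both strands were searched, and a peak of 150 bp holds many words by its length and composition alone.

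Genes that work with the receptors were described in the same way, from lists drawn up with earlier results known. All 31 accessory and scaffold genes of excitatory synapses, such as Dlg4, Shank3, Cacng2 and Neto1, had a promoter peak in both libraries, as did all 12 of inhibitory synapses, such as Gphn, the gephyrin gene. Of 17 genes of transmitter synthesis and transport, such as Gad1 and Slc32a1, 16 did. Voltage-gated channel genes were open in 43 of 50, and genes of nicotinic, serotonin and purine channels in 14 of 25. Their median promoter percentiles were 92.7 and 91.5 for excitatory partners, 95.2 and 93.2 for inhibitory partners, 89.5 and 85.5 for transmitter genes, 86.4 and 85.0 for voltage-gated channels and 90.9 and 83.5 for the nicotinic, serotonin and purine channels. The receptor genes, at 84.1 and 84.6, were the lowest of these lists in replicate 1 and the second lowest in replicate 2.

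In distal peaks the receptor genes were also lower than most of these lists. The median density per 100 kb was 13.1 and 12.0 for transmitter genes, 9.35 and 8.38 for excitatory partners, 7.77 and 6.75 for voltage-gated channels, 8.92 and 6.54 for nicotinic, serotonin and purine channels and 4.02 and 3.63 for inhibitory partners, against 4.10 and 1.47 for the receptors. In replicate 1 the receptor genes and the inhibitory partners were thus alike on this measure, and in replicate 2 the receptor genes were lower. Pooled over the whole territory of each list, the receptor genes were higher in both libraries. They had 3.41 and 2.17 per 100 kb, beside 3.01 and 1.72 for the inhibitory partners. The lists were not matched for territory. Its median was 270 kb for the receptors, 108 kb for transmitter genes, 103 kb for excitatory partners and 142 kb for voltage-gated channels. It was 34.8 kb for nicotinic, serotonin and purine channels and 85.7 kb for inhibitory partners. Differences between lists, and the part of territory in them, were not tested.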

How the data were processed

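DNase-seq libraries of 2 replicates from 1 group were used. Per the labels and the text deposited with the files, the authors called peaks and hotspots in each library on its own, on mm10, from filtered alignments. No aligner, caller or threshold is named in the sources used here. The authors deposited a whole-number score for each peak, and a −log10 q-value for each hotspot. Scores served only for ranks and filters inside their own list. The files hold no read counts, so the sequencing depth is unknown and no interval that needs it was computed.

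Repeated rows were removed (45 and 22), and peaks on the main chromosomes (199411 and 153974) were kept. The GRCm38 genome, the assembly of mm10, and the GENCODE vM21 annotation gave 21853 genes with 54361 TSSs. Promoter, distal peak, territory and CpG class are defined in the text. The computation used Python 3.11.15 with pandas 2.3.3, numpy 2.4.6 and pysam 0.24.0, and the assignment of peaks to genes was tested on simulated data. With 1 group no test was possible. Every member may be named, and full values are given for those without a promoter peak in both libraries, those that lead a class in promoter score, distal count or density, and those with a REST word. The members, the lists and the rules were chosen with earlier results of these data known. Alternatives changed the promoter width, the TSSs, the distance and overlap limits, the peaks kept, the word and the library.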

Additional observations from a re-analysis of the deposited data

How the results depend on the processing

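Of 72 alternative values, 65 stayed within the limits set for the same result and 7 moved. For promoter counts the limit was a fixed fold change, which counts near their maximum cannot exceed upward. For the share of CpG-poor promoters with a peak it was a binomial confidence interval, which treats genes as independent. For means of the 2 libraries it was their standard deviation. Leaving 1 library out of such a mean cannot exceed that limit, so those values stayed by construction. The tally is therefore not a measure of robustness. The mean of 520.5 distal peaks per library was 214.5 within 50 kb of a TSS, 194.5 for the higher-scoring 50% of each list and 261 for peaks found in both libraries. The mean of the median densities, 2.78 per 100 kb, was 1.18, 0.423 and 0.920 under these 3 settings. Of these, the value of 1.18 stayed within its limit. With equal numbers of peaks the median density was 2.32 in replicate 1, in place of 4.10, and 1.47 in replicate 2. The REST share of 0.540% was 1.95% with at most 1 mismatch. The median promoter percentile of 84.3 was 81.7 at the principal TSS alone, an alternative chosen after seeing the data. TSSs of all transcripts, the share of CpG-poor promoters with a peak together with all its alternatives, and leaving a library out of the promoter percentile were also added after seeing the data. The cause of these moves was not tested, except that settings that keep fewer peaks lower a count by construction. With 1 library left out in turn, open receptor promoters numbered 40 to 41, ionotropic ones 16 to 17, and the other classes did not move. Distal peaks numbered 405 to 636, their median density was 1.47 to 4.10 and the REST share 0.402% to 0.677%. No paired analysis was possible because there is 1 group. Depth is unknown, so a site called in 1 library may lie under the limit of the other.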
